A study of Mus musculus with 30 samples.

Results

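Transcripts of 10 genes that carry gemcitabine into cells, activate it, remove it or serve as its target were followed in mammary tumors of MMTV-PyMT mice. The genes were the rows of the deposited table with the symbols Slc29a1, Slc29a2, Dck, Cmpk1, Nme1, Cda, Dctd, Samhd1, Rrm1 and Rrm2. They were 10 of 21841 genes in the table, and all 10 were among the 13663 genes with enough reads to be tested. RNA sequencing had been run on 30 tumors in 6 groups of 5. All mice were FVB/N-Tg(MMTV-PyVT)634Mul/J, with a genotype given as WT. Here the MMTV promoter, which is active mainly in mammary epithelium, drives the polyoma middle T oncogene, and whole tumor tissue was sequenced. Vehicle was given to 1 group and a single antimetabolite, 5-FU or gemcitabine, to a pair of groups. The remaining 3 received KCL-HO-1i, which inhibits the heme-degrading enzyme HO-1, either alone, with 5-FU (KCL-HO-1i/5-FU) or with gemcitabine (KCL-HO-1i/gemcitabine). Per the labels, tissue was taken at 72 h. The label doses were 64 mg/kg of gemcitabine once every 7 days, 40 mg/kg of 5-FU once every 4 days, and 25 µmol/kg of KCL-HO-1i each day. Time and gemcitabine dose are both smaller in the study's methods, so the exposure behind these values is not settled. Ages are not among the labels used here.

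Gemcitabine is an analogue of deoxycytidine. Equilibrative nucleoside transporters, encoded by Slc29a1 and Slc29a2, let it enter cells, and deoxycytidine kinase, encoded by Dck, adds the first phosphate in the rate-limiting step of its activation. The kinases encoded by Cmpk1 and Nme1 can add the following phosphates, and the triphosphate is built into DNA. Cytidine deaminase, encoded by Cda, and deoxycytidylate deaminase, encoded by Dctd, convert the drug or its monophosphate to inactive forms. SAMHD1 hydrolyses deoxynucleoside triphosphates. The diphosphate inhibits ribonucleotide reductase, whose large and small subunits are encoded by Rrm1 and Rrm2 and which supplies dividing cells with deoxynucleotides.

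No gene of the 10 passed an adjusted p of 0.05 by edgeR in any of 10 comparisons. By DESeq2 and limma-voom, 1 gene, Rrm1, did in 2 of them. These were KCL-HO-1i/5-FU against vehicle and the KCL-HO-1i effect averaged over its backgrounds. The share of all tested genes that DESeq2 and limma-voom passed was not recorded. Averaged over tumors with and without KCL-HO-1i, gemcitabine moved 0 of 10 past an unadjusted p of 0.05 by edgeR, beside 5.14% of all tested genes. Against vehicle alone 1 of 10 was past it, Slc29a2, beside 3.83% of all tested genes. The lowest p-values belonged to Rrm1, which was lower in tumors given KCL-HO-1i. However, the size of that difference depended on 7 tumors whose library names share a number, called the mouse code below. Within groups, Rrm1, Rrm2, Nme1 and Dck followed the level of S-phase genes from tumor to tumor.

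Total counts ran from 10067577 to 13622264 per library. Counts were scaled to library size as CPM, and log2 CPM was computed with a prior count of 2. The luminal markers Epcam (590 to 1502 CPM) and Krt8 (567 to 1611 CPM) were high in all 30 libraries. The number in each library's name, here called the mouse code, divided the libraries into 13 codes of unstated meaning. A suffix follows the number in the name, and it differed between all libraries that share a code. Code 76 held 7 of the 10 libraries given a chemotherapy without KCL-HO-1i and none of the 15 with it, so in those libraries code and treatment cannot be told apart. Only 3 of the 13 codes held tumors both with and without KCL-HO-1i. Outside those 3, code and KCL-HO-1i cannot be told apart either. The study describes individual mice, and if a code marks related animals, these libraries are not fully independent.

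Promoter sequences are shown for Rrm1, Rrm2 and Dck, the members whose correlation with the level of S-phase genes was positive in every group. For Dck the lowest r within a group was 0.02. The sequences are the 250 bases before the RefSeq start on GRCm38.p6, on the gene's strand. Capitals mark CCAAT boxes, the E-box CACGTG, the GC-rich sequence CCCCGCCC and the E2F-type sequences TTTGGCGC, TTTCCCGC, TTTGCCGC and TTTCGCGC, searched on both strands. The regions are chr7:102441445-102441694 on the plus strand for Rrm1, chr12:24708004-24708253 on the plus strand for Rrm2 and chr5:88764763-88765012 on the plus strand for Dck.
Rrm1: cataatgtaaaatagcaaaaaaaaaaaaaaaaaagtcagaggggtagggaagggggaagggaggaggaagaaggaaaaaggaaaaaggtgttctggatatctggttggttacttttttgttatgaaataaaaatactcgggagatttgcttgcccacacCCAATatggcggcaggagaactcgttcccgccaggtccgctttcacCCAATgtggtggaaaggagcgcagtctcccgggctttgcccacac
Rrm2: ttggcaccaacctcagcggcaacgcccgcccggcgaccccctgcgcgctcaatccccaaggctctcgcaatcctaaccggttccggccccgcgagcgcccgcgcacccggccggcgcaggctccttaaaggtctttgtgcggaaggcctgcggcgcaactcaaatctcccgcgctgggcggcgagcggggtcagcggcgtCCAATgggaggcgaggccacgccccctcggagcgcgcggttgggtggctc
Dck: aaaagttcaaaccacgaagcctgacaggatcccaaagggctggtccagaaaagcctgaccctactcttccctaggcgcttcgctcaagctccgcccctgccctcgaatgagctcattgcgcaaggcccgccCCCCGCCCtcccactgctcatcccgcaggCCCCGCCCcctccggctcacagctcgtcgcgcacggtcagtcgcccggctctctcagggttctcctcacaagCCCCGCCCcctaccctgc
The Rrm1 promoter held a pair of CCAAT boxes, beginning 91 and 45 bases before the start. The Rrm2 promoter held 1, beginning 50 bases before the start. The Dck promoter held CCCCGCCC at 3 places, beginning 119, 90 and 18 bases before the start. Of the 32851 mouse promoters searched over the same length, 33.9% held a CCAAT box, 16.1% held CCCCGCCC and 1.86% held an E2F-type sequence. None of the 10 members held an E2F-type sequence in these 250 bases, nor was 1 found in 17 of 22 S-phase genes. These matches describe letters and not bound sites.

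To compare genes with each other, CPM was divided by the median length of each gene's coding transcripts in GENCODE M21, in kilobases. On this scale of level per length, the transporter gene Slc29a1 (chr17:45585200-45599606) was the highest in all 30 libraries, at 146 ± 43.6 CPM per kb (SD, n = 30). The second transporter gene, Slc29a2 (chr19:5023860-5031972), was the lowest on average, at 2.60 ± 0.780 CPM per kb. It lay under Cda (chr4:138338424-138367992; 6.37 ± 3.81 CPM per kb) in 27 of 30 libraries. Among activating kinases, Nme1 stood at 63.6 ± 14.5, Cmpk1 (chr4:114959336-114987241) at 45.9 ± 6.22 and Dck (chr5:88764996-88783281) at 14.1 ± 2.53 CPM per kb. Dck, the kinase of the first step, was below both later kinases, and below Rrm1 in 30 of 30 libraries. Rrm2 (chr12:24708241-24714146; 38.1 ± 19.4), Samhd1 (chr2:157097533-157135265; 34.2 ± 7.96) and Rrm1 (chr7:102441695-102469771; 30.7 ± 11.2 CPM per kb) were neighbors in this order and were not separated. Rrm2 was above Samhd1 in 18 of 30 libraries, and Samhd1 was above Rrm1 in 18 of 30. Dctd (chr8:48099092-48153233) was low, at 8.05 ± 3.11 CPM per kb, and above Cda in 21 of 30 libraries. Nme1 (chr11:93956979-93968521) adjoins Nme2, and an annotated read-through gene covers both, so its reads may be shared between them. The 2 coding transcripts of Nme1 are 452 and 3181 bases long, and the median used was 1816.5. Its level per length, and its rank against Slc29a1 and Cmpk1, therefore depend on the length chosen.

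**Figure D1:**
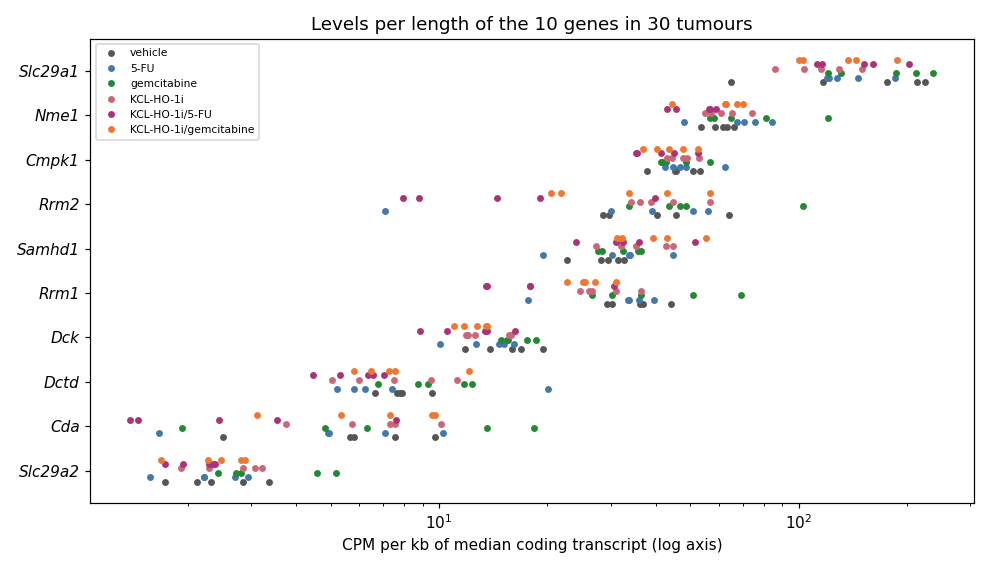
Level of each gene divided by transcript length (CPM per kb, log axis) in 30 tumors, with 1 point per tumor colored by treatment group. Slc29a1 lies at the top in all 30 tumors and Slc29a2 at the bottom on average, and the points of Rrm2, Samhd1 and Rrm1 overlap.

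Genes differed in how far they varied between tumors. The highest library exceeded the lowest 14.6-fold for Rrm2 and 13.2-fold for Cda, against 1.76-fold for Cmpk1 and 2.19-fold for Dck. Cda rested on few reads, 15 to 190 per library, and Slc29a2 on 49 to 136, so both were measured less precisely. When the 6 groups were ordered by mean CPM within each gene, the ranges of all 50 neighboring pairs of groups overlapped. In 47 of the 50, the means lay within 1 SD of each other. Neighbors in such an order have close means by construction, so these counts do not show that groups further apart overlap.

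**Figure D2:**
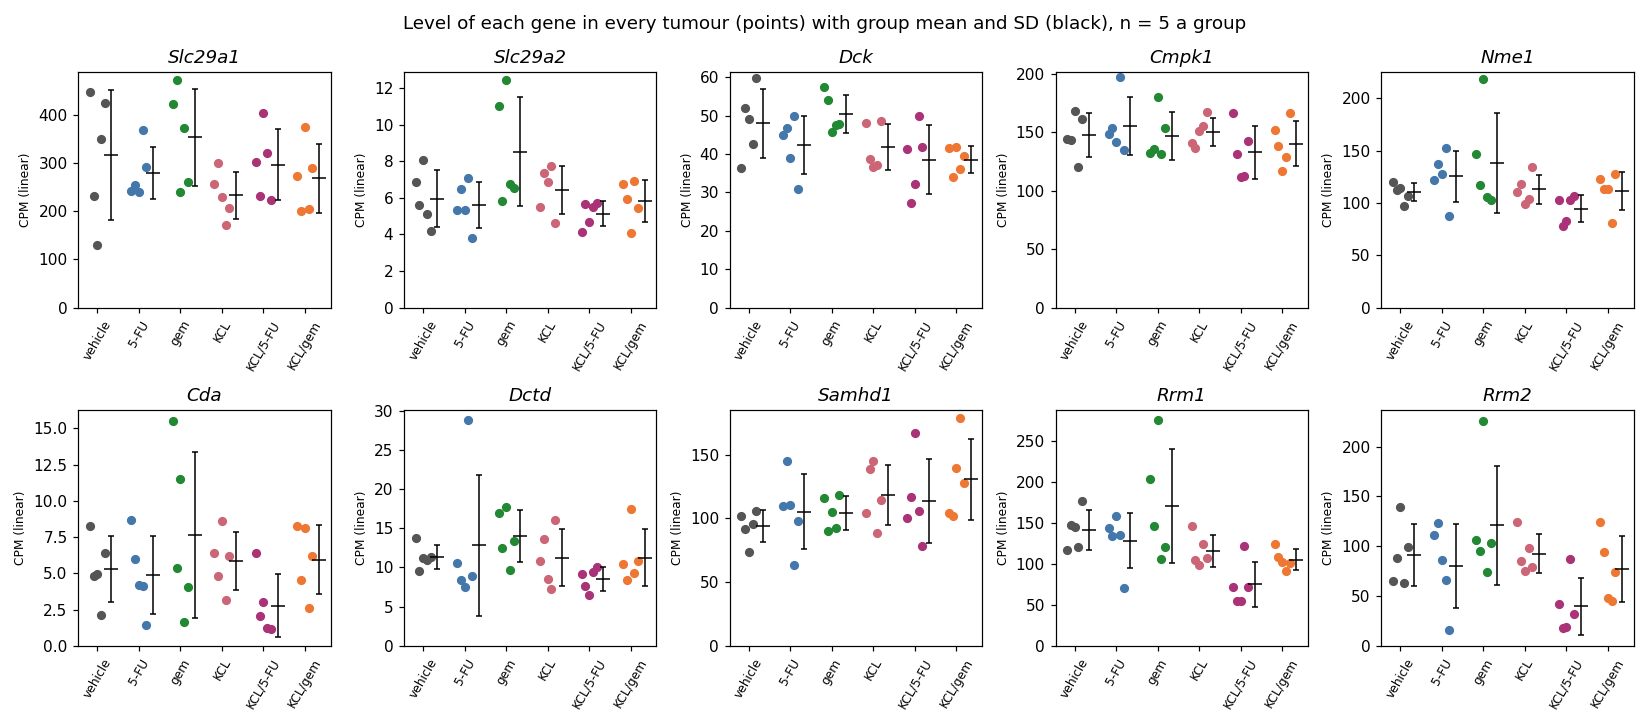
CPM of the 10 genes in each tumor (points, n = 5 per group) with the group mean and SD in black, where gem stands for gemcitabine and KCL for KCL-HO-1i. Groups overlap in most panels, Rrm1 and Rrm2 are low in 4 of 5 KCL-HO-1i/5-FU tumors, and single tumors stand high for Dctd after 5-FU (28.8 CPM) and for Rrm2 after gemcitabine (226 CPM).

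The first question was whether gemcitabine changed transcripts of the genes that handle it. It was asked as gemcitabine against vehicle, as KCL-HO-1i/gemcitabine against KCL-HO-1i, and as the mean of both, called the gemcitabine average. With edgeR, 0 of 10 genes passed an adjusted p of 0.05 in the gemcitabine average, in which 0% of the 13663 tested genes did. At an unadjusted p of 0.05 the count was 0 of 10, against 5.14% of all tested genes. DESeq2 and limma-voom gave 0 at both limits as well, with no share of all genes recorded for them. Of the 10 genes 8 were higher and 2 lower, with a median log2 fold change of 0.15, beside 0.03 over all tested genes. Without the 7 libraries of code 76, which leaves 1 tumor given gemcitabine alone, 2 were higher and 8 lower.

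Of the transporter genes, Slc29a2 had the lowest p of the 10 genes in gemcitabine against vehicle and Slc29a1 did not come near the limit (p 0.546). Slc29a2 measured 6.86, 5.60, 8.09, 5.09 and 4.17 CPM in the vehicle tumors and 11.02, 5.84, 12.5, 6.75 and 6.56 CPM in the gemcitabine tumors. A pair of gemcitabine tumors, both of code 76, lay above all vehicle tumors, and the other 3 lay within their range. The log2 fold change in gemcitabine against vehicle was 0.52 ± 0.23 (SE), with an unadjusted p of 0.0366 and an adjusted p of 0.941 by edgeR. This was the 1 gene of 10 past the unadjusted limit in that comparison, where 3.83% of all genes were past it and 0% passed the adjusted one. Without code 76 its log2 fold change was 0.11, a value that sets 1 gemcitabine tumor against 5 vehicle tumors. In KCL-HO-1i/gemcitabine the same gene ran from 4.05 to 6.93 CPM. Slc29a1, the main route of entry, averaged 353 ± 101 CPM with gemcitabine and 316 ± 134 with vehicle (SD, n = 5), and its gemcitabine average was 0.18 with a 95% interval of -0.20 to 0.56.

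Among activating enzymes, Dck had the narrowest limits after Cmpk1. Its gemcitabine average was -0.02 on the log2 scale, with a 95% interval of -0.24 to 0.20, and that of Cmpk1 was -0.05 (-0.24 to 0.13). These intervals allow changes of about that size in either direction and do not show that the levels were equal. Nme1 had a gemcitabine average of 0.15 ± 0.12 (SE). In gemcitabine against vehicle it reached 0.33 with an unadjusted p of 0.0634, and the gemcitabine tumors ran from 103 to 218 CPM around a median of 118. The highest, replicate 3, was also the highest of its group for Rrm1 and Rrm2.

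Among the inactivating enzymes, levels over the 30 tumors spread 13.2-fold for Cda, 4.48-fold for Dctd and 2.84-fold for Samhd1. Cda measured 15.5, 5.34, 11.5, 1.63 and 4.07 CPM in the gemcitabine tumors, which spanned the whole vehicle range of 2.12 to 8.27 CPM. Its gemcitabine average of 0.27 had an interval from -0.49 to 1.04. Dctd had a gemcitabine average of 0.16 ± 0.21 and Samhd1 of 0.15 ± 0.14 (SE).

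For the target enzyme, the gemcitabine average was 0.07 ± 0.17 for Rrm1 and 0.07 ± 0.31 for Rrm2 (SE). Rrm2 measured 106, 95.4, 226, 74.03 and 103 CPM in the gemcitabine tumors and 65.01, 88.5, 140, 62.8 and 99.7 CPM in the vehicle tumors. Replicate 3 of gemcitabine stood above all others, and the remaining 4 lay inside the vehicle range. In KCL-HO-1i/gemcitabine against KCL-HO-1i, 0 of 10 genes passed either limit, beside 0% (adjusted) and 2.66% (unadjusted) of all genes. The difference between the gemcitabine effects with and without KCL-HO-1i was tested by an interaction term in edgeR. Here 0 of 10 genes had an unadjusted p under 0.05, and the share over all genes was not recorded. The lowest p was that of Slc29a2, with a difference of -0.66 and an unadjusted p of 0.0577.

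**Figure D3:**
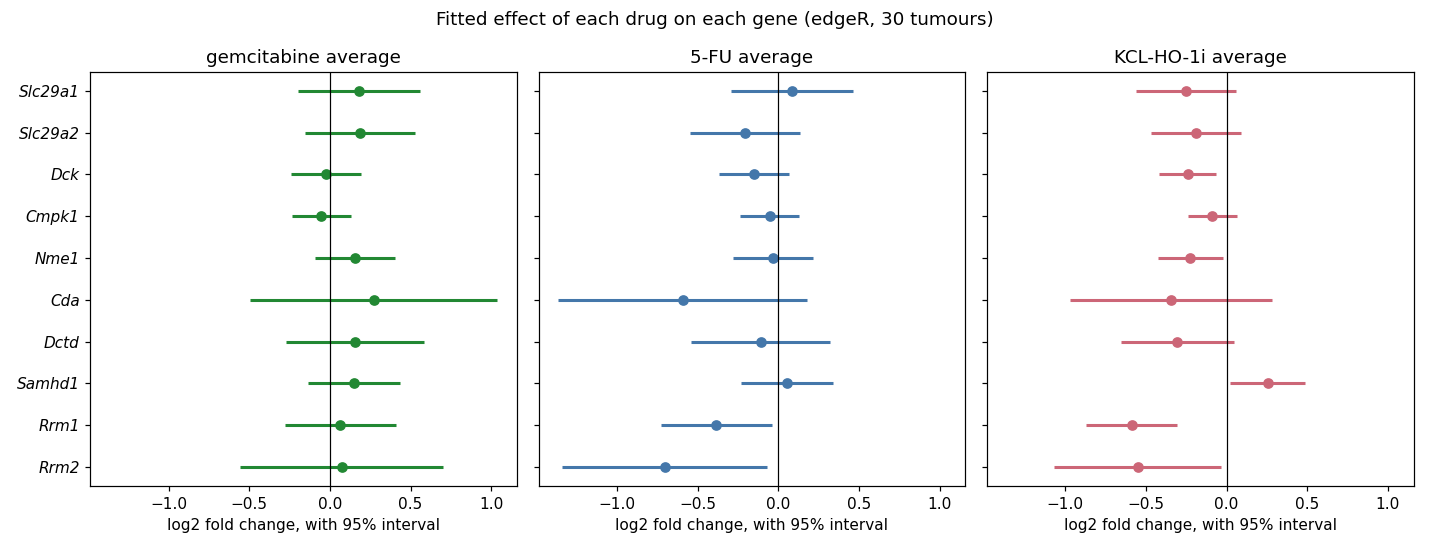
Log2 fold change (point) with its 95% interval (line) for each gene in the gemcitabine, 5-FU and KCL-HO-1i averages from edgeR over 30 tumors. All 10 gemcitabine intervals cross 0, those of Rrm1 and Rrm2 lie below 0 for 5-FU, and for KCL-HO-1i those of Rrm1, Rrm2, Dck and Nme1 lie below 0 and that of Samhd1 above it, none past the adjusted limit.

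KCL-HO-1i was assessed over its 3 backgrounds, as the mean of KCL-HO-1i against vehicle, KCL-HO-1i/5-FU against 5-FU and KCL-HO-1i/gemcitabine against gemcitabine, called the KCL-HO-1i average. Of the 10 genes 9 were lower and 1, Samhd1, was higher, with a median log2 fold change of -0.25 beside 0.00 over all tested genes. At an unadjusted p of 0.05, 5 of 10 were past the limit, where 23.0% of all tested genes were. At the adjusted limit the count was 0 of 10 by edgeR, beside 0.0586% of all genes. It was 1 of 10, Rrm1, by both DESeq2 and limma-voom, for which no share of all genes was recorded.

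Rrm1 showed the clearest difference. It measured 117, 147, 144, 121 and 177 CPM in the vehicle tumors and 146, 104, 98.3, 124 and 106 CPM in the KCL-HO-1i tumors. The values were 143, 134, 159, 134 and 70.5 CPM with 5-FU, and 71.6, 54.4, 54.0, 122 and 71.4 CPM with KCL-HO-1i/5-FU. With gemcitabine they were 203, 146, 276, 106 and 121 CPM, and with KCL-HO-1i/gemcitabine 124, 109, 102, 90.7 and 100.5 CPM. In 14 of the 15 tumors with KCL-HO-1i, Rrm1 lay below the mean of the matching group without it, though the ranges overlapped in each background. The difference in mean log2 CPM was -0.29 on vehicle, -0.79 on 5-FU and -0.61 on gemcitabine. The KCL-HO-1i average was -0.59 ± 0.14 (SE), with an unadjusted p of 0.000212 and an adjusted p of 0.0525 by edgeR, 0.00445 by DESeq2 and 0.0202 by limma-voom. Without the 7 code 76 libraries the KCL-HO-1i average was -0.32. The tumors given a chemotherapy alone were then 5-FU replicates 4 and 5 and gemcitabine replicate 5. Of these, 5-FU replicate 5 was the lowest of its group, at 70.5 CPM. Without gemcitabine replicate 3 alone the KCL-HO-1i average was -0.51. Leaving out any of 7 single libraries brought the adjusted p for Rrm1 under 0.05, down to 0.0168 without KCL-HO-1i/5-FU replicate 4.

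Rrm2 had a KCL-HO-1i average of -0.55 ± 0.25 (SE; unadjusted p 0.0375, adjusted p 0.187 by edgeR). Without code 76 it was -0.14, with 5-FU replicates 4 and 5 (66.1 and 15.5 CPM) as the 5-FU tumors left. The 5 KCL-HO-1i tumors, at 124, 85.0, 75.2, 98.4 and 79.5 CPM, lay inside the vehicle range. Values of 41.8, 17.4, 19.3, 87.2 and 31.8 CPM were seen with KCL-HO-1i/5-FU, against 111, 123, 85.98, 66.1 and 15.5 CPM with 5-FU. Here 4 of 5 tumors given the combination were below all 5-FU tumors but 1.

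Dck measured 57.4, 54.1, 45.8, 47.6 and 47.8 CPM with gemcitabine and 41.5, 33.99, 41.8, 36.0 and 39.4 CPM with KCL-HO-1i/gemcitabine. It was the 1 gene of 10 whose groups did not overlap in this comparison, and the share over all tested genes was not computed. Its log2 fold change there was -0.39 ± 0.15 (SE), with an unadjusted p of 0.0148 and an adjusted p of 0.300 by edgeR. Slc29a2 (-0.55) and Rrm1 (-0.70) were also past the unadjusted limit, making 3 of 10 beside 13.5% of all genes, and 0 of 10 beside 0% at the adjusted limit. Without code 76, which leaves 1 gemcitabine tumor, 0 of 10 were. The KCL-HO-1i average of Dck was -0.24 ± 0.09 (unadjusted p 0.00968), and that of Nme1 -0.23 ± 0.10 (unadjusted p 0.0298).

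Samhd1 went the other way. It measured 102, 91.8, 73.8, 95.7 and 106 CPM in the vehicle tumors, 104, 139, 145, 88.8 and 115 CPM with KCL-HO-1i, and 105, 102, 139, 179 and 128 CPM with KCL-HO-1i/gemcitabine. With gemcitabine alone it measured 116, 90.0, 105, 92.2 and 119 CPM, and the 5-FU tumors ran from 63.1 to 145 CPM. Its ranges overlapped in each background. It lay above the matching mean in 11 of 15 tumors with KCL-HO-1i. Its KCL-HO-1i average was 0.26 ± 0.11 (SE; unadjusted p 0.0332, adjusted p 0.177 by edgeR). The KCL-HO-1i/gemcitabine group against vehicle gave 0.48 for Samhd1 and -0.32 for Dck, 2 of 10 past the unadjusted limit beside 19.8% of all genes, and 0 of 10 beside 0% at the adjusted limit. KCL-HO-1i against vehicle gave 0 of 10 at both limits, beside 9.43% (unadjusted) and 0% (adjusted).

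In tumors with KCL-HO-1i, markers of other cell types and cell cycle genes also differed, none past the adjusted limit. Their part in the results above was not tested, and the fits with covariates given here are a description. At the unadjusted limit, which 23.0% of all tested genes passed in the KCL-HO-1i average, 15 of 22 S-phase genes, 7 of 15 mitosis genes and 2 of 10 luminal markers were lower. Higher were 10 of 11 macrophage, 9 of 9 adipocyte, 7 of 7 skeletal muscle, 7 of 7 fibroblast, 4 of 5 endothelium and 2 of 4 tested neutrophil markers. None of 7 T cell and 4 tested keratinocyte markers passed it. The level of the S-phase list, the mean log2 CPM of its genes, ran from 3.97 to 5.50 in the 15 libraries with KCL-HO-1i and from 4.06 to 6.24 in the 15 without. That of the macrophage list ran from 4.40 to 6.21 and from 2.77 to 5.83, and that of the adipocyte list from -0.83 to 8.93 and from -0.98 to 6.51. The adipocyte markers Adipoq and Cidec were each at 0 in 3 libraries. In bulk tissue, fewer cells of a type and less RNA per cell cannot be told apart. With the S-phase score as a covariate, chosen after seeing the data, the KCL-HO-1i average was -0.23 for Rrm1 (unadjusted p 0.00157, adjusted p 0.377), 0.12 for Rrm2, -0.09 for Dck and -0.01 for Nme1. With the macrophage score it was -0.43 for Rrm1 (adjusted p 0.990) and 0.10 for Samhd1, and with the adipocyte score -0.52 (adjusted p 0.370) and 0.25. These scores come from the same libraries, and many of their genes differed with KCL-HO-1i at the unadjusted limit. Within groups, Rrm1 and Rrm2 followed the S-phase score closely (r = 0.92 each). A smaller value in such a fit therefore cannot test the part of cell cycle or tissue makeup.

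As a second antimetabolite, 5-FU was set beside gemcitabine. It differs from gemcitabine as a fluorinated base, while gemcitabine is a fluorinated nucleoside. In 5-FU against vehicle, 0 of 10 genes passed either limit, beside 0% (adjusted) and 3.89% (unadjusted) of all genes. In the mean of this and of the same contrast on KCL-HO-1i, called the 5-FU average, Rrm1 was at -0.39 ± 0.17 and Rrm2 at -0.70 ± 0.31 (SE), with unadjusted p-values of 0.0295 and 0.0307 by edgeR. These were 2 of 10 beside 12.0% of all genes, and 0 of 10 beside 0% at the adjusted limit. KCL-HO-1i/5-FU against vehicle gave -0.92 ± 0.24 for Rrm1 (SE; adjusted p 0.119 by edgeR) and -1.21 ± 0.44 for Rrm2 (adjusted p 0.171). Cda was at -0.93 ± 0.54 there, with an unadjusted p of 0.0952. With Dck (-0.32), 3 of 10 were past the unadjusted limit, beside 17.6% of all genes, and 0 of 10 beside 0% at the adjusted one. DESeq2 and limma-voom each passed 1 of 10, Rrm1, at the adjusted limit in that comparison, with no share of all genes recorded. Without KCL-HO-1i/5-FU replicate 4, whose Rrm1 and Rrm2 were the highest of its group, edgeR passed both, with adjusted p-values of 0.0313 and 0.0490. The vehicle tumors are shared by these comparisons, so they are not independent of each other.

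Members were then related to tissue and cycle scores across the 30 tumors, after subtracting each group's mean. Of 40 relations tested by permutation within groups (100000 draws, two-sided, adjusted over the 40), 6 had an adjusted p under 0.05 for Pearson's r. The S-phase score was tied to Rrm2 (r = 0.92, rho = 0.90), Rrm1 (r = 0.92, rho = 0.91), Nme1 (r = 0.77, rho = 0.70) and Dck (r = 0.66, rho = 0.62). Leaving out the 2 libraries farthest from the median score, r was 0.89, 0.89, 0.70 and 0.61 in the same order. The sign was positive within all 6 groups for Rrm1, Rrm2 and Dck, and within 5 of 6 for Nme1. The lowest r within a group was 0.76 for Rrm1, 0.85 for Rrm2, 0.02 for Dck and -0.20 for Nme1. The adjusted permutation p was 0.0002 for both subunits, from an unadjusted 1e-05 that is the smallest the draws can give. It was 0.00107 for Nme1 and 0.00624 for Dck. Dctd went with the macrophage score (r = -0.62, rho = -0.66, adjusted p 0.00624; r = -0.73 without the 2 farthest) and the adipocyte score (r = -0.50, rho = -0.50, adjusted p 0.0364). Without the 2 farthest libraries the latter had r = -0.47 and an adjusted permutation p of 0.0571, so that 5 of the 6 relations passed. For that setting the draws were made over all remaining libraries and not within groups, so both changes enter this p. Its r with the macrophage score was negative within all 6 groups. Samhd1, a gene known to be abundant in myeloid cells, had r = 0.42 with the macrophage score (rho = 0.32, adjusted p 0.0975) and was not past the limit. By Spearman's rho 9 relations passed, among them Dck and Nme1 with the macrophage score (rho = -0.53 and -0.52). No member passed with the luminal score. Tumors sharing a code enter these permutations as independent.

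**Figure D4:**
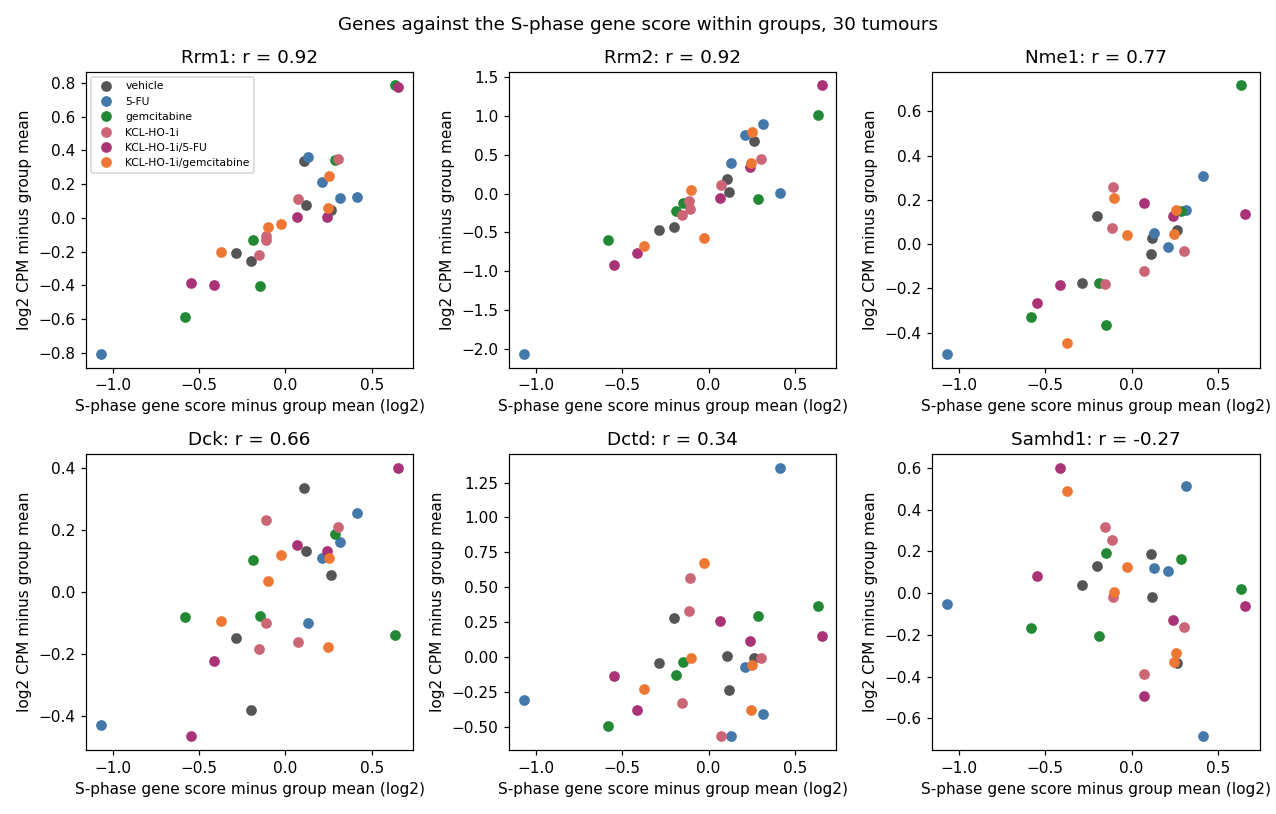
Log2 CPM of 6 genes against the S-phase gene score (mean log2 CPM of 22 genes), both as the difference from the group mean, in 30 tumors colored by group. Rrm1 and Rrm2 rise with the score along a line (r = 0.92 each), Nme1 and Dck rise less tightly, and Dctd (r = 0.34) and Samhd1 (r = -0.27) scatter.

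Other genes of the same pathways were read from lists that held the remaining nucleoside transporters, kinases and nucleotidases, and the enzymes of deoxynucleotide supply and DNA polymerases. Of the first list, 15 of 18 genes were tested, and of the second 9 of 9. No gene of either list passed the adjusted limit in the gemcitabine, 5-FU or KCL-HO-1i average by edgeR. In the gemcitabine average, 1 of the 15 was past the unadjusted limit (5.14% of all genes were), Nme2 (0.29 ± 0.12, SE), the kinase gene beside Nme1, and 0 of the 9 were. In the 5-FU average, 2 of the 15 were higher and 1 lower at the unadjusted limit, beside 12.0% of all genes, and 0 of the 9 passed it. In the KCL-HO-1i average, 2 of the 15 were higher and 1 lower, a count of 3 that is no larger a share than the 23.0% of all genes. The lower one was Slc28a3, which encodes a concentrative nucleoside transporter, at -0.46 ± 0.18, with 58.4 to 178 CPM in the tumors with KCL-HO-1i and 50.7 to 284 in those without. Higher were Dguok, a mitochondrial deoxyguanosine kinase gene, at 0.20 ± 0.09 and the transporter gene Slc28a2 at 2.15 ± 0.68. Slc28a2 was at most 8.75 CPM and at 0 in 4 of 30 libraries. In the second list 5 of 9 were lower at that limit: thymidylate synthase Tyms (-0.31), the dUTPase gene Dut (-0.31) and the polymerase genes Pola1 (-0.38), Pold1 (-0.34) and Pole (-0.43). Rrm2b, the p53-responsive small subunit of ribonucleotide reductase, had a KCL-HO-1i average of 0.02 ± 0.09.

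The genes most like each member were found by Pearson's r of log2 CPM over 30 libraries after subtracting group means, as a description. Nearest to Rrm1 were Ncaph (r = 0.94), Kif4 (r = 0.94) and Ercc6l (r = 0.93), and nearest to Rrm2 were Nek2 (r = 0.95) and Fen1 (r = 0.94). Ncaph and Kif4 take part in chromosome condensation, and Fen1 in DNA replication and repair. Nme1 was nearest to Eif5a (r = 0.94), Ube2t (r = 0.91) and Nhp2 (r = 0.91), and Dck to Hnrnpll (r = 0.86), Rad54l (r = 0.81) and Fam83d (r = 0.79). Slc29a1 was nearest to Etv5 (r = 0.86) and Spred1 (r = 0.84), which are both known to respond to RAS-MAPK signaling, and to Gramd2 (r = 0.83). The rest were Top1mt, Imp4 and Parp16 for Slc29a2 (r of 0.80 to 0.83), and Ppa2, Tmem183a and Spryd4 for Cmpk1 (r of 0.81 to 0.82). Cda was nearest to Gm4737, Nanos1 and Cct2 (r of 0.84 to 0.85), Dctd to Vcpkmt, Zmat2 and Metrn (r of 0.80 to 0.83), and Samhd1 to Zbtb7c, Slc39a14 and C130050O18Rik (r of 0.73 to 0.79).

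Between members, the ribonucleotide reductase subunits were the most alike (r = 0.86), Rrm1 ranking 79 of 13662 genes by likeness to Rrm2 and Rrm2 ranking 110 by likeness to Rrm1. Nme1 with Rrm1 reached r = 0.72 and Dck with Rrm1 0.61. The transporter genes Slc29a1 and Slc29a2 ran opposite ways (r = -0.39), as did Samhd1 and Cmpk1 (r = -0.43). These values share library depth and tissue makeup.

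Neighboring genes on the chromosome were examined for deviations shared with the members. For each member, the median deviation of the 10 tested genes on either side from their means over all libraries was taken. It stayed between -0.46 and 0.40 (log2) for all 10 members in all 30 libraries. In 5-FU replicate 4, where Dctd was 1.39 above its mean, the neighbors of Dctd were at 0.11. In gemcitabine replicate 3, where Rrm2 was 1.65 above its mean, its neighbors were at 0.17.

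Tumors with and without KCL-HO-1i could be set side by side within 3 mouse codes, with 1 or 2 tumors per side and no test. Rrm1 differed by -0.12 in code 69, 0.21 in code 74 and -0.22 in code 84 (log2 CPM, with minus without). Rrm2 was higher with KCL-HO-1i in all 3 codes, by 0.57, 1.32 and 0.19, although the chemotherapy also differed within codes 69 and 84. In code 74 the only tumor without KCL-HO-1i was 5-FU replicate 5, the lowest of its group for Rrm1 (70.5 CPM) and Rrm2 (15.5 CPM). For Samhd1 the differences were 0.49, 0.18 and 0.33, so it was higher with KCL-HO-1i in each of the 3. With the code as a factor in the edgeR fit, the KCL-HO-1i average was -0.08 for Rrm1, 0.83 for Rrm2 and 0.41 for Samhd1, with adjusted p-values of 0.953, 0.649 and 0.498. In that fit, tumors with and without KCL-HO-1i are linked only through these 3 codes.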

How the data were processed

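Bulk RNA sequencing had been run on 30 mammary tumors, 5 in each of 6 groups taken from the labels. The authors deposited a gene table of expected counts made with STAR (2.7.9a), Salmon (1.9.0) and tximport on mm10 after FastQC (0.11.9). Their methods call the values TPM, but the columns sum to 10067577 to 13622264 and 38.0% of values are not whole, as for expected counts. Libraries were prepared with a directional kit from individual mice collected on separate days.

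Counts were rounded, filtered with filterByExpr (minimum count 10; the genes left out hold 0.0564% of counts) and TMM-normalized. All 30 libraries were fitted with edgeR (4.0.16, R 4.3.3) quasi-likelihood, with Benjamini-Hochberg adjustment over 13663 genes. DESeq2 (1.42.0), limma-voom (3.58.1), RLE factors, no filter, a replicate block, the mouse code and left-out libraries were alternatives. The limma-voom fit used sample quality weights and robust moderation, so outlying libraries could count for less in it. Relations used permutation in scipy (1.17.1). Scripts were tested on simulated data. Promoters came from RefSeq (GRCm38.p6) and positions from GENCODE M21 (mm10).

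The text names all 10 members, the 3 genes most like each (1 of them is not reported here), and those of the pathway lists whose unadjusted p was below 0.05 for the gemcitabine or KCL-HO-1i average. Members and lists were chosen with earlier results of these data known.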

Additional observations from a re-analysis of the deposited data

Results flagged for a closer look

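Each of the 10 genes was examined in each of the 6 groups of 5 for a tumor far from the others, by Dixon's test (critical value 0.71). Of the 60 sets tested, 5 held such a tumor, and chance gives about 1 in 20. Dctd was 28.8 CPM in 5-FU replicate 4, with the next tumor at 10.6 CPM. Dctd was also 17.4 CPM in KCL-HO-1i/gemcitabine replicate 3, with the next at 10.8 CPM. Rrm1 was 70.5 CPM in 5-FU replicate 5, where the next lowest was 134 CPM. Rrm1 was 122 CPM in KCL-HO-1i/5-FU replicate 4, where the next highest was 71.6 CPM. Rrm2 was 226 CPM in gemcitabine replicate 3, where the next highest was 106 CPM. No interaction of gemcitabine or 5-FU with KCL-HO-1i passed an unadjusted p of 0.05 in 20 edgeR tests, and the share over all genes was not recorded.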

How the results depend on the processing

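At the adjusted limit, 0 of 10 members passed in every comparison by edgeR with RLE factors, no filter, the replicate block, the code factor, only the groups compared and without code 76. The KCL-HO-1i average, which uses all groups, was not refitted on fewer groups. Shares of all genes were recorded for the main edgeR fit only. DESeq2 and limma-voom each passed 1, Rrm1, in KCL-HO-1i/5-FU against vehicle (adjusted p 0.0228 and 0.0369) and in the KCL-HO-1i average. Leaving out 1 library gave 0 to 2 in both. For the KCL-HO-1i average of Rrm1 the adjusted p was then 0.0168 to 0.122 (log2 fold change -0.69 to -0.51). It was under 0.05 without each of 5-FU replicate 5, gemcitabine replicate 5, KCL-HO-1i replicates 1 and 5, KCL-HO-1i/5-FU replicates 4 and 5 and KCL-HO-1i/gemcitabine replicate 4. Without KCL-HO-1i/5-FU replicate 4, Dck passed as well (0.0428).

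Counts at the unadjusted limit moved more. Gemcitabine against vehicle went from 1 to 0 with limma-voom, the code factor, only the groups compared or without code 76, to 2 with no filter, and to 0 to 2 leaving out 1 library. KCL-HO-1i against vehicle went from 0 to 1 with limma-voom or only the groups compared, and 0 to 1 leaving out 1. With the code factor, KCL-HO-1i/5-FU against vehicle went from 3 to 0, KCL-HO-1i/gemcitabine against vehicle from 2 to 0, the 5-FU average from 2 to 0, the KCL-HO-1i average from 5 to 2 and KCL-HO-1i/gemcitabine against gemcitabine from 3 to 1. Leaving out 1 library, these ran over 2 to 4, 0 to 3, 0 to 3, 2 to 6 and 1 to 4. The KCL-HO-1i average was 3 with limma-voom and 1 without code 76 (Dctd), and KCL-HO-1i/gemcitabine against gemcitabine 0 without code 76. The replicate block gave 1 for KCL-HO-1i/gemcitabine against vehicle and moved no other count by over 1.5 times. Replicate numbers did not pair libraries: the residual correlation of same-numbered libraries averaged 0.00284 over 75 pairs, and 8 of 30 correlated best with their own number.

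Directions turned in the gemcitabine average with limma-voom for Cmpk1 (0.00786), Cda (-0.00305) and Rrm1 (-0.0647). They turned with the code factor for Slc29a2 (-0.0638), Dck (0.16), Cmpk1 (0.15), Cda (-0.14), Samhd1 (-0.14), Rrm1 (-0.17) and Rrm2 (-0.71). Without code 76, with 1 gemcitabine tumor left, they turned for Slc29a1 (-0.0658), Slc29a2 (-0.0238), Nme1 (-0.0845), Cda (-0.20), Rrm1 (-0.21) and Rrm2 (-0.0681). Leaving out 1 library it ran over -0.0640 to 0.0187 for Dck, -0.0555 to 0.13 for Rrm1 and -0.10 to 0.17 for Rrm2. With the code factor, Dck turned to 0.19 in KCL-HO-1i/5-FU against vehicle and to 0.11 in KCL-HO-1i/gemcitabine against vehicle, Rrm1 to 0.0418 in KCL-HO-1i/gemcitabine against gemcitabine and Rrm2 to 0.83 in the KCL-HO-1i average. That average also turned for Cda without code 76 (0.22) and with the S-phase score (0.27), Rrm2 with the S-phase score (0.12), and Cmpk1 (0.0119) and Dctd (0.0672) with the macrophage score. Leaving out code 76 and the score covariates were chosen after seeing the data. Without centring, and with draws over all libraries and not within groups, 13 relations passed instead of 6. The causes were not tested. Low reads limit Cda and Slc29a2.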
